A study of Mus musculus with 20 samples.

Results

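Transcript levels in mouse spinal cord were compared between dexamethasone and saline on the 12 arrays that carry the replicate numbers 1, 2 and 3, out of 20 arrays in the series. Both genotypes were used together, so 6 dexamethasone (Dex) arrays stood against 6 saline arrays. The animals were C57BL/6J mice aged 6 to 10 weeks, given 1 intraperitoneal injection of saline or of Dex at 4 mg/kg, and the cord was taken 4 h later. The 4 groups of 3 arrays were control mice with saline, control mice with Dex, Cx30GRko mice with saline and Cx30GRko mice with Dex. The array titles call the genotypes wt and Tg, which were read here as control and Cx30GRko. By design, Cx30GRko mice lose the glucocorticoid receptor gene by Cre recombination in cells that express connexin 30. Other cells of the cord are meant to keep the receptor, and its loss by cell type was not measured here. According to the series description, the cord is the tissue where recombination was most efficient. The sources used here do not give the alleles of the controls, any inducer of Cre, the sex of the animals or whether animals were pooled. The comparison asks which genes of the cord differ between Dex and saline on average over both genotypes. A gene need not respond in each genotype to be called.

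Dex is a synthetic agonist of the glucocorticoid receptor. The receptor waits in the cytoplasm in a chaperone complex, enters the nucleus when it binds hormone, and either binds DNA at glucocorticoid response elements or meets other transcription factors on chromatin. In nervous tissue it acts in astrocytes, oligodendrocytes, microglia, neurons and vessel cells alike, and its early targets include its own chaperone Fkbp5, brakes on inflammation, brakes on growth and enzymes of fuel use.

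Values are the deposited log2 signals of 1 probe set per gene, so a difference of 1 is a doubling of the signal. The targeted gene comes first. Nr3c1, which encodes the glucocorticoid receptor, read 6.43, 6.57 and 6.58 with saline and 6.30, 6.11 and 6.27 with Dex in control mice, and 6.49, 6.34 and 6.01 with saline and 6.29, 6.08 and 6.17 with Dex in Cx30GRko mice. The arrays of both genotypes overlapped under each treatment. The sources used here do not say where probe set 17353985 lies relative to the deleted part of the gene, so these values do not check the genotype labels. Under Dex, Nr3c1 differed from saline by -0.20 ± 0.09 (SE, limma, adjusted p = 0.702, n = 6 and 6). Gjb6, the gene of connexin 30 itself, differed by 0.16 ± 0.10 (limma, adjusted p = 0.803).

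Dex changed 102 of 22180 genes (0.46%) at an adjusted p under 0.05 in limma with genotype as a block, and 79 of them were higher (0.356% of genes) and 23 lower (0.104%). The risers were led by Setdb2, which encodes a SET-domain protein of the histone methyltransferase family, at 3.6-fold, and the fallers by Trim59, of the tripartite-motif ubiquitin ligase family, at 2.51-fold lower. Rises ran from 0.37 to 1.85 and falls from -0.37 to -1.33 on the log2 scale. Over 2-fold changes numbered 16 among the risers and 1 among the fallers. In 91 of the 102 genes the Dex arrays did not overlap the saline arrays, 71 with all Dex arrays higher and 20 with all Dex arrays lower. Among all genes, 152 (0.685%) had every Dex array above every saline array and 52 (0.234%) had every Dex array below. The count depends on single arrays: it was 55 without control saline replicate 1, 61 without control Dex replicate 1, 63 without Cx30GRko saline replicate 2 and 67 without control saline replicate 2, and 50 genes (43 higher, 7 lower) were called whichever single array was left out.

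**Figure D1:**
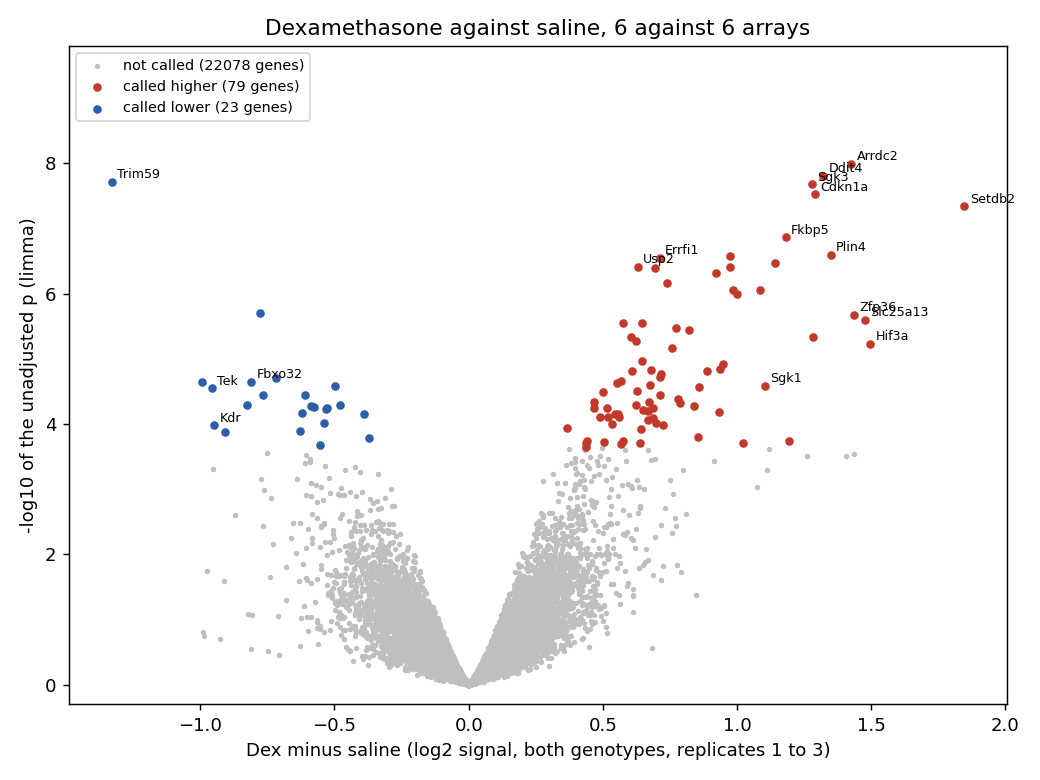
Difference between Dex and saline (x axis, log2 signal) against the unadjusted limma p on a -log10 scale (y axis) for 22180 genes, 6 against 6 arrays. The 79 genes called higher are red, the 23 called lower are blue, and Trim59 at -1.33 stands alone among the fallers past a doubling.

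Setdb2 read 4.81, 5.12 and 5.03 with saline and 7.11, 7.07 and 7.08 with Dex in control mice, and 5.56, 5.01 and 5.65 with saline and 7.43, 7.01 and 6.55 with Dex in Cx30GRko mice (probe set 17307318). All 6 Dex arrays were above all 6 saline arrays, and the 3 Cx30GRko Dex arrays were spread more widely than the 3 control Dex arrays. The rise was 1.85 ± 0.16 (SE, limma, adjusted p = 0.00017).

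Known targets of the receptor were among the risers. A list of 34 such genes held 16 that rose and none that fell, and all 34 had a difference above 0, with a median of 0.59 beside 0.00 over all 22180 genes. Of all genes, 11115 were above 0 and 11065 below. The list was drawn up with earlier results of these data known, so its count is not independent evidence of its direction. Of its risers, Cdkn1a, Ddit4, Plin4, Klf9, Klf15, Mt2, Zfp36, Nfkbia and Tsc22d3 also stand in other lists below. The counts of those lists are therefore not separate from the receptor target count. Beside every list count stand the shares over all genes, 0.356% higher and 0.104% lower. Fkbp5, the co-chaperone that restrains the receptor, read 5.48, 5.71 and 5.60 with saline and 7.17, 6.72 and 6.59 with Dex in control mice. In Cx30GRko mice it read 5.75, 5.51 and 5.75 in saline and 6.56, 6.87 and 6.99 in Dex. The Fkbp5 groups did not overlap, and the rise of 1.18 ± 0.11 was 2.27-fold (limma, adjusted p = 0.000432). Zbtb16, a zinc-finger transcription factor, lay between 5.73 and 6.53 in saline (median 6.34) and between 7.29 and 7.47 in Dex (median 7.44), a rise of 1.14 ± 0.12 (limma, adjusted p = 0.000631). Arrdc2, an alpha-arrestin, lay between 4.40 and 4.86 in saline (median 4.65) and between 5.66 and 6.24 in Dex (median 6.14). Both were without overlap, and Arrdc2 rose by 1.43 ± 0.11 (limma, adjusted p = 0.000116). Hif3a, a subunit of hypoxia-inducible factor with inhibitory splice forms, rose by 1.50 ± 0.20 (limma, adjusted p = 0.00435), from a saline range of 3.42 to 4.35 to a Dex range of 4.80 to 5.91.

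Other standard reporters of glucocorticoid action had smaller differences. Tsc22d3, which encodes the glucocorticoid-induced leucine zipper protein, read 4.08 to 4.41 in saline (median 4.25) and 4.59 to 4.80 in Dex (median 4.65). Its groups did not overlap, yet the rise was 0.44 ± 0.08 (limma, adjusted p = 0.0432), and 10 of the 12 fits that leave out 1 array lost the call, with an adjusted p of up to 0.127. Per1, a circadian clock gene with a known response to glucocorticoids, read 6.87 to 7.52 in saline and 7.42 to 7.73 in Dex, with overlap, and its difference of 0.44 ± 0.10 missed the threshold (limma, adjusted p = 0.122). With a variance prior that follows the signal level, Per1 passed it (limma, adjusted p = 0.0235). That setting called more genes in general, 165 in place of 102. None of the 18 clock genes passed the test, and 12 of them were above 0 with a median of 0.03. A list of 14 other genes of the receptor's own machinery, its chaperones and coactivators, had a median of -0.01 and no member that passed. The co-chaperone Fkbp5, which rose, was placed in the receptor target list and not in this one. Klf9, a Krüppel-like transcription factor, rose by 0.47 ± 0.08 (limma, adjusted p = 0.0185) and lost its call without any 1 of 4 arrays (control saline replicates 1 and 2, control Dex replicate 1, Cx30GRko saline replicate 2; adjusted p up to 0.0584).

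Among the serum- and glucocorticoid-regulated kinases, which act on ion channels and transporters, Sgk1 and Sgk3 were among the largest rises. The third member of the family, Sgk2, differed by -0.01 ± 0.19 (limma, adjusted p = 0.995) and was looked up after the values of the others were seen. Sgk1 (probe set 17232055) read 5.77, 6.30 and 5.89 with saline and 7.11, 7.07 and 7.21 with Dex in control mice, and 5.65, 5.79 and 6.81 with saline and 7.30, 7.10 and 7.05 with Dex in Cx30GRko mice. One saline array, Cx30GRko replicate 3, was well above the other 5 and still below every Dex array, and the rise was 1.10 ± 0.17 (limma, adjusted p = 0.0124). Sgk3, the relative with a lipid-binding PX domain (probe set 17211043), read 5.79, 5.83 and 5.94 with saline and 7.21, 7.16 and 7.43 with Dex in control mice. In Cx30GRko mice Sgk3 read 6.07, 5.74 and 6.26 in saline and 7.32, 7.13 and 7.06 in Dex. The groups did not overlap, and Sgk3 rose by 1.28 ± 0.11 (limma, adjusted p = 0.000116).

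The receptor's palindromic element gives a sequence view of the same genes. The motif searched was GNACA followed by any 3 bases and TGTNC, which is its own reverse complement, so both strands were covered, in windows of 250 bases before to 50 bases after each RefSeq start on assembly GRCm38.p6. Of the 22180 genes 16990 had a window, and 91 of those (0.536%) held the motif. It was present in 2 of the 67 risers with a window, Sgk1 and Map3k6, and in 1 of the 19 fallers, Eml1. These 3 windows are shown because they are the matches among the called genes, with the motif in capitals. The windows are chr10:21993640-21993939 (plus strand, 1 of 6 distinct windows of Sgk1), chr4:133240568-133240867 (plus strand, Map3k6) and chr12:108423787-108424086 (plus strand, Eml1).
Sgk1: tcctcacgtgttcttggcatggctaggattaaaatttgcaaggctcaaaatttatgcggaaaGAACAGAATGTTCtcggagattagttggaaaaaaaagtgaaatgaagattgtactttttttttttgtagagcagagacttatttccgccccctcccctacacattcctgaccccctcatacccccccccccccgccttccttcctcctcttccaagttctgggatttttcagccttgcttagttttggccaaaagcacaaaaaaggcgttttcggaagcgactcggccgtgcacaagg
Map3k6: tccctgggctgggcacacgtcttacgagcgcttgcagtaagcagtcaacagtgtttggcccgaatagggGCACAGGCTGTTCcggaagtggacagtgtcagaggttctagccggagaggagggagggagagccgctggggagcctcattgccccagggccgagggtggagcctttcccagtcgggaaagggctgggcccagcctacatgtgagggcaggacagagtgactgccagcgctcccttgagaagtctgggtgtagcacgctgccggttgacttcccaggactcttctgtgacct
Eml1: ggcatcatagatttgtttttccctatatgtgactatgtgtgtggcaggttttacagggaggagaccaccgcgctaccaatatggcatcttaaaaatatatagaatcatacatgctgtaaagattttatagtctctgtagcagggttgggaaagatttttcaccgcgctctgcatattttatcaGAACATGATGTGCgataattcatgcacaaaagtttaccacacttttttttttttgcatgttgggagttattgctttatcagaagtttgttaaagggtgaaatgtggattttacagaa
In Sgk1 the match GAACAGAATGTTC spans bases 63 to 75 of the window, in Map3k6 GCACAGGCTGTTC spans bases 70 to 82, and in Eml1 GAACATGATGTGC spans bases 184 to 196. A match is a description of letters, and with counts this small no share is set above another. Map3k6, a kinase of the stress-activated cascade, read 3.02 to 3.61 in saline (median 3.25) and 3.62 to 5.05 in Dex (median 4.33). Its highest saline array and its lowest Dex array nearly touch, and the rise of 1.02 ± 0.20 (limma, adjusted p = 0.0443) was lost in 10 of the 12 fits that leave out 1 array. Eml1, a microtubule-associated protein, fell from a range of 7.48 to 7.73 in saline to 6.97 to 7.28 in Dex, without overlap, a difference of -0.50 ± 0.08 (limma, adjusted p = 0.0124). Map3k6 and Eml1 were singled out after their values were seen.

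Of 23 genes for growth arrest and mTOR inhibition 3 rose and none fell, with a list median of 0.06. Ddit4, which inhibits the mTOR complex that drives protein synthesis, read 4.06, 3.96 and 4.50 with saline and 5.41, 5.46 and 5.43 with Dex in control mice, and 4.07, 3.94 and 3.85 with saline and 5.58, 5.18 and 5.26 with Dex in Cx30GRko mice (probe set 17241032). Cdkn1a, an inhibitor of cyclin-dependent kinases, read 6.67, 7.22 and 7.30 with saline and 8.29, 8.15 and 8.22 with Dex in control mice. In Cx30GRko mice Cdkn1a read 6.81, 6.65 and 6.66 in saline and 8.20, 8.07 and 8.13 in Dex (probe set 17335467). The 6 Dex arrays of Cdkn1a lay closer together than its 6 saline arrays, and neither gene overlapped between treatments. Ddit4 rose by 1.32 ± 0.11 (2.5-fold) and Cdkn1a by 1.29 ± 0.11 (2.45-fold; limma, adjusted p = 0.000116 and 0.000133). Ccng1, a cyclin G, rose by 0.79 ± 0.13 (limma, adjusted p = 0.0182) and lost its call without any 1 of 5 arrays (control saline 1 and 2, control Dex 1 and 2, Cx30GRko saline 2; adjusted p up to 0.0598). Gadd45g, a growth arrest and DNA damage gene, differed by 1.11 ± 0.24 and missed the threshold (adjusted p = 0.0793). The 24 cell cycle genes had no member that passed, with a median of -0.04.

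Lipid genes moved at a few points. Plin4, a coat protein of lipid droplets, lay between 4.60 and 5.57 in saline (median 5.01) and between 6.24 and 6.57 in Dex (median 6.34), a rise of 1.35 ± 0.14 (limma, adjusted p = 0.000625). Pnpla2, the lipase that starts the breakdown of stored triglyceride, lay between 5.53 and 5.84 in saline (median 5.76) and between 6.28 and 6.92 in Dex (median 6.76), a rise of 0.92 ± 0.10 (limma, adjusted p = 0.000707). Neither gene overlapped between treatments. They were the 2 risers among 29 genes of lipid droplets and fatty acid use, which had a median of 0.04, while the hormone-sensitive lipase Lipe differed by 0.40 ± 0.08 and missed the threshold (limma, adjusted p = 0.0634).

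Slc25a13, the mitochondrial aspartate and glutamate carrier citrin, and Slc2a1, the glucose transporter of the blood-brain barrier, were the 2 risers among 25 glucose and lactate genes. In that list 23 of 25 members were above 0, beside 11115 of all 22180 genes, with a median of 0.15. Slc25a13 read 4.41 to 4.89 in saline (median 4.59) and 5.32 to 6.71 in Dex (median 6.16), a rise of 1.48 ± 0.18 (limma, adjusted p = 0.00256). Slc2a1 read 7.85 to 8.07 in saline (median 7.95) and 8.45 to 8.61 in Dex (median 8.54), a rise of 0.58 ± 0.07 (limma, adjusted p = 0.00264). Neither overlapped, but with the mean of all its probe sets Slc2a1 differed by 0.37 ± 0.09 and missed the threshold (limma, adjusted p = 0.131). Ppp1r3c, which targets a phosphatase to glycogen, differed by 0.58 ± 0.12 and missed the threshold (limma, adjusted p = 0.0516). Xdh, which makes urate in purine breakdown and is on the receptor target list, rose by 1.09 ± 0.12 (limma, adjusted p = 0.0011), from a range of 3.75 to 4.07 to a range of 4.59 to 5.27.

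Of 19 genes of FoxO signalling and muscle atrophy, 2 rose and 1 fell. The risers were Klf9 and Klf15, a Krüppel-like factor of amino acid and fuel metabolism that rose by 0.84 ± 0.14 (limma, adjusted p = 0.0185) and lost its call without any 1 of 5 arrays (control saline 1 and 2, control Dex 1, Cx30GRko Dex 1, Cx30GRko saline 2; adjusted p up to 0.0578). Fbxo32, the muscle ubiquitin ligase atrogin, went the other way: it read 6.33, 6.59 and 6.78 with saline and 5.75, 5.41 and 5.33 with Dex in control mice, and 6.63, 6.29 and 6.45 with saline and 5.97, 5.89 and 5.86 with Dex in Cx30GRko mice. All Dex arrays were below all saline arrays, a difference of -0.81 ± 0.13 (limma, adjusted p = 0.0117). The list median was 0.08.

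Of 22 genes on a list of inflammation brakes 4 rose, Zfp36, Nfkbia, Il6ra and Tsc22d3, with a list median of 0.06. Il6ra is on that list but is part of a cytokine receptor and not itself a brake. Zfp36, which speeds the decay of cytokine messages, read 2.54, 2.99 and 3.51 with saline and 4.89, 4.83 and 4.64 with Dex in control mice, and 3.10, 2.64 and 3.04 with saline and 4.26, 4.01 and 3.81 with Dex in Cx30GRko mice. The treatments did not overlap, and every control Dex array was above every Cx30GRko Dex array. Zfp36 lies in the dimmest 1 in 3 genes, and rose by 1.44 ± 0.18 (limma, adjusted p = 0.00223). Nfkbia, the inhibitor that holds NF-kB in the cytoplasm, read 5.59 to 6.12 in saline (median 5.77) and 6.44 to 6.89 in Dex (median 6.58), a rise of 0.82 ± 0.11 (limma, adjusted p = 0.00303). Il6ra, the receptor subunit that binds interleukin-6, read 4.96 to 5.57 in saline (median 5.22) and 5.77 to 6.13 in Dex (median 6.02), a rise of 0.76 ± 0.10 (limma, adjusted p = 0.00481). None of 25 inflammatory and chemokine genes passed (11 above 0, median -0.03). Of 26 interferon-response genes 1 fell, Gbp11, a guanylate-binding protein, with a list median of -0.07. Gbp11 lay between 2.95 and 3.81 in saline and between 2.29 and 2.76 in Dex, a difference of -0.83 ± 0.14 (limma, adjusted p = 0.0185). It is in the dimmest 1 in 3 genes, has close relatives that could share probes, and lost its call without control Dex replicate 1, control saline replicate 2 or Cx30GRko saline replicate 2 (adjusted p up to 0.0575). The 20 immediate early genes, with a median of -0.11, had none that passed.

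Mt2, a metal-binding metallothionein, read 8.17 to 8.69 in saline (median 8.44) and 8.69 to 9.22 in Dex (median 9.12), touching at the edge, a rise of 0.54 ± 0.09 (limma, adjusted p = 0.0208). It lost its call without any 1 of 5 arrays (control saline 1 and 3, control Dex 1 and 2, Cx30GRko saline 2; adjusted p up to 0.0671), and was the 1 riser among 11 metallothionein and zinc genes, whose median was 0.07. Its relative Mt1 differed by 0.34 ± 0.08 (limma, adjusted p = 0.135). Errfi1, an inhibitor of the epidermal growth factor receptor, lay between 7.07 and 7.22 in saline and between 7.66 and 8.07 in Dex, a rise of 0.71 ± 0.07 (limma, adjusted p = 0.000625).

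Besides Setdb2 and Sgk3, the large rises outside these lists included Tma16, a translation-machinery factor, and Lao1, an L-amino acid oxidase. Tma16 read 3.27 to 4.38 in saline (median 3.52) and 4.49 to 5.34 in Dex (median 4.95), a rise of 1.28 ± 0.17 (limma, adjusted p = 0.00364). Lao1 read 2.95 to 3.94 in saline and 3.76 to 5.09 in Dex, with overlap, a rise of 1.19 ± 0.23 (limma, adjusted p = 0.0432) that was lost in 9 of the 12 fits that leave out 1 array (adjusted p up to 0.12).

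The falls were fewer and included receptors of vessel cells. Trim59 (probe set 17405789) read 6.80, 6.80 and 6.67 with saline and 5.07, 5.52 and 5.52 with Dex in control mice, and 6.86, 6.91 and 6.50 with saline and 5.33, 5.44 and 5.67 with Dex in Cx30GRko mice. The gap between the lowest saline and the highest Dex array was wider than the range within either treatment, and the difference was -1.33 ± 0.11 (limma, adjusted p = 0.000116). Tek, the angiopoietin receptor of endothelial cells, read 5.18, 5.22 and 5.34 with saline and 3.79, 4.19 and 4.05 with Dex in control mice, and 5.01, 5.29 and 4.62 with saline and 4.09, 4.64 and 4.15 with Dex in Cx30GRko mice. Kdr, the main receptor for vascular endothelial growth factor, read 5.01, 5.02 and 4.80 with saline and 3.69, 4.30 and 3.72 with Dex in control mice. In Cx30GRko mice Kdr read 5.27, 5.03 and 4.91 in saline and 3.87, 3.91 and 4.86 in Dex. In each of the pair 1 Cx30GRko Dex array reached into the saline range, replicate 2 for Tek and replicate 3 for Kdr. Tek differed by -0.96 ± 0.15 and Kdr by -0.95 ± 0.17 (limma, adjusted p = 0.0129 and 0.0269). The Kdr call was lost in 9 of the 12 fits that leave out 1 array, with differences from -1.10 to -0.88 and an adjusted p of up to 0.0907.

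Of 21 angiogenic receptors and vessel signals these were the 2 that fell, none rose, and the median was -0.08. Aplnr, the apelin receptor, differed by -0.74 ± 0.18 and Eng, the co-receptor endoglin, by -0.56 ± 0.14, and neither passed (limma, adjusted p = 0.149 and 0.167). Of 12 endothelial markers 2 fell (Tek, Kdr) and 1 rose, Mfsd2a, the lipid transporter of the blood-brain barrier, by 0.49 ± 0.09 (limma, adjusted p = 0.0222; lost in 8 of the 12 fits that leave out 1 array, adjusted p up to 0.0771). The endothelial list had 10 of 12 members below 0, beside 11065 of all 22180 genes, and a median of -0.22. Its mean level per array ran from 5.68 to 6.10 in saline and from 5.59 to 5.93 in Dex. Single members of the list ran from -0.96 to 0.57. In whole cord, fewer cells of a type and less RNA per cell cannot be told apart, and the part of the endothelial level in the falls of Tek and Kdr was not tested.

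Depdc7, a DEP-domain gene in the dimmest 1 in 3, lay between 3.80 and 4.29 in saline and between 2.60 and 3.63 in Dex, without overlap, a difference of -0.99 ± 0.15 (limma, adjusted p = 0.0117). Pik3c2b, a class II phosphoinositide kinase, lay between 4.58 and 4.86 in saline and between 3.71 and 4.23 in Dex, a difference of -0.78 ± 0.10 (limma, adjusted p = 0.00219). Tnfaip6, a hyaluronan-binding protein, lay between 6.66 and 6.96 in saline and between 5.64 and 6.37 in Dex, a difference of -0.72 ± 0.11 (limma, adjusted p = 0.0108). None of these 3 genes overlapped between treatments. The predicted gene Gm10863 differed by -0.91 ± 0.17 (limma, adjusted p = 0.0329) and lost its call in 9 of the 12 fits that leave out 1 array (adjusted p up to 0.107). Sall1, a zinc-finger transcription factor, fell from a saline range of 5.59 to 6.19 to a Dex range of 4.83 to 5.46, a difference of -0.77 ± 0.12 (limma, adjusted p = 0.015), and did not pass when control saline replicate 1 or Cx30GRko saline replicate 2 was left out (adjusted p up to 0.0504).

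**Figure D2:**
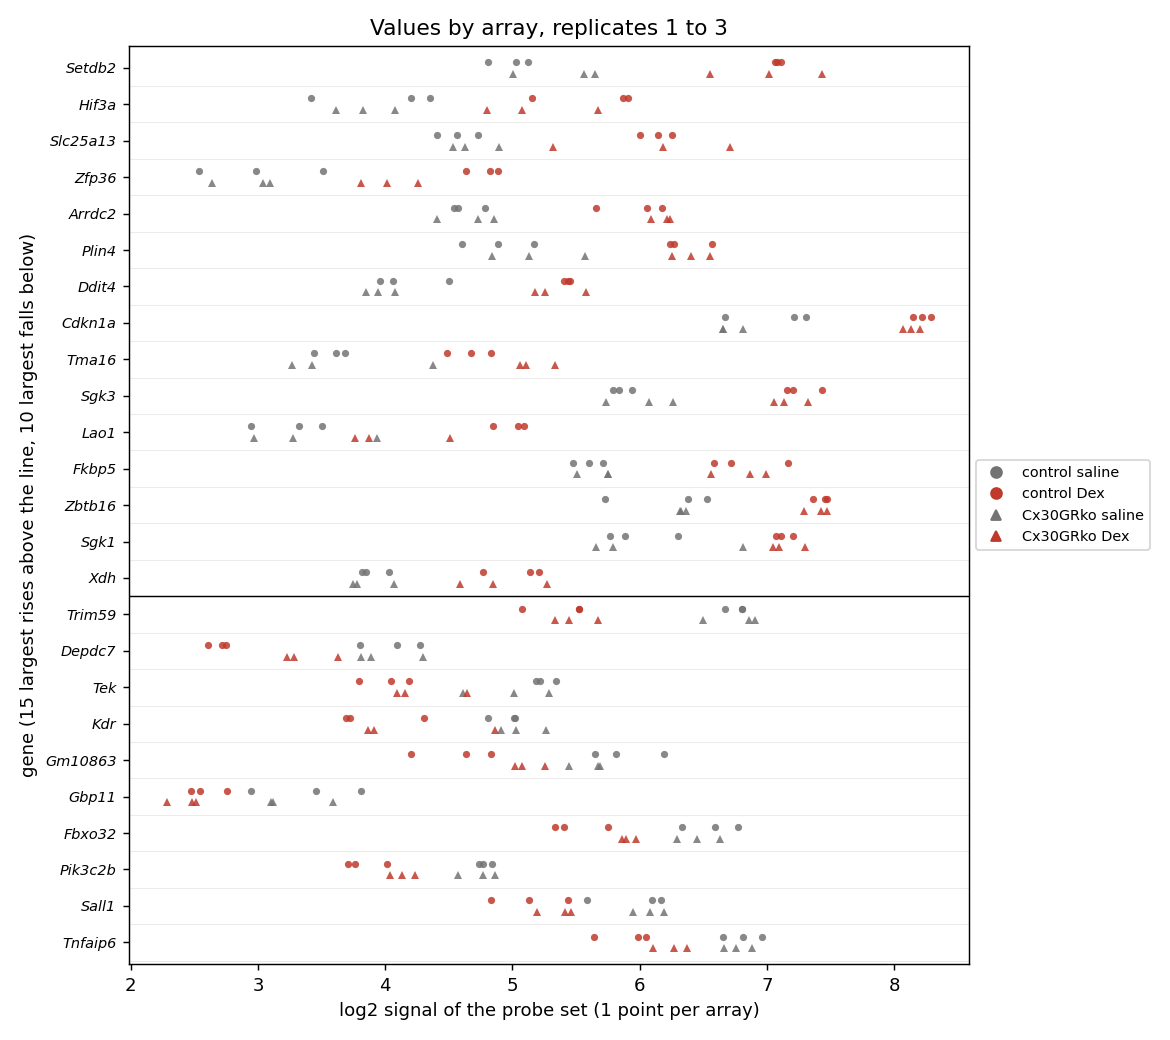
Log2 signal (x axis) on each of the 12 arrays for the 15 largest rises (above the line) and the 10 largest falls (below), with control arrays as circles, Cx30GRko arrays as triangles, saline in grey and Dex in red. Red and grey points are apart in all genes drawn except Lao1, Tek and Kdr.

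Cell type markers gave few calls. Of 11 oligodendrocyte markers 1 fell, Aspa, the enzyme that cleaves N-acetylaspartate, which lay between 6.62 and 7.18 in saline (median 6.93) and between 6.20 and 6.46 in Dex (median 6.37). Aspa differed by -0.59 ± 0.10 (limma, adjusted p = 0.0185) and lost its call without any 1 of 4 arrays (Cx30GRko saline 1 and 2, control Dex 1, control saline 2; adjusted p up to 0.0582). The oligodendrocyte list median was -0.04, and the list's score, the mean over its members of log2 signal minus the 12-array mean, ran from -0.04 to 0.27 in saline and from -0.18 to 0.08 in Dex. No marker passed among 12 for astrocytes (median 0.10), 8 for oligodendrocyte precursors (0.05), 13 for neurons (-0.03), 11 for microglia (-0.01), 11 for mural cells (-0.02), 7 for ependymal cells (0.18), 12 for meningeal fibroblasts (-0.07) and 7 for Schwann cells (-0.42). The same held for 2 erythrocyte markers (0.10), 11 for neutrophils and monocytes (-0.06), 10 for lymphocytes (0.01) and 10 for skeletal muscle (-0.13).

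Marker scores of meningeal fibroblasts and of Schwann cells varied between arrays far more than the astrocyte score did. The meningeal score ran from -0.91 to 0.76 in saline and from -0.93 to 0.94 in Dex, and the Schwann cell score from -0.79 to 1.36 and from -1.28 to 0.87. The astrocyte score stayed between -0.09 and 0.05 in saline and between -0.06 and 0.09 in Dex. By genotype, the median Dex difference of the meningeal markers was -0.64 in control and 0.42 in Cx30GRko mice. With the meningeal and Schwann score as a covariate, an alternative chosen after the data were seen, 111 genes were called and 93 of them were among the 102. Among the other lists no member passed in 29 collagen and matrix genes (median -0.07, at -0.31 in control and 0.21 in Cx30GRko mice), 15 astrocyte transport genes for glutamate, potassium and water (0.04), 19 sterol synthesis genes (-0.05) and 14 heat shock genes (0.04).

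**Figure D3:**
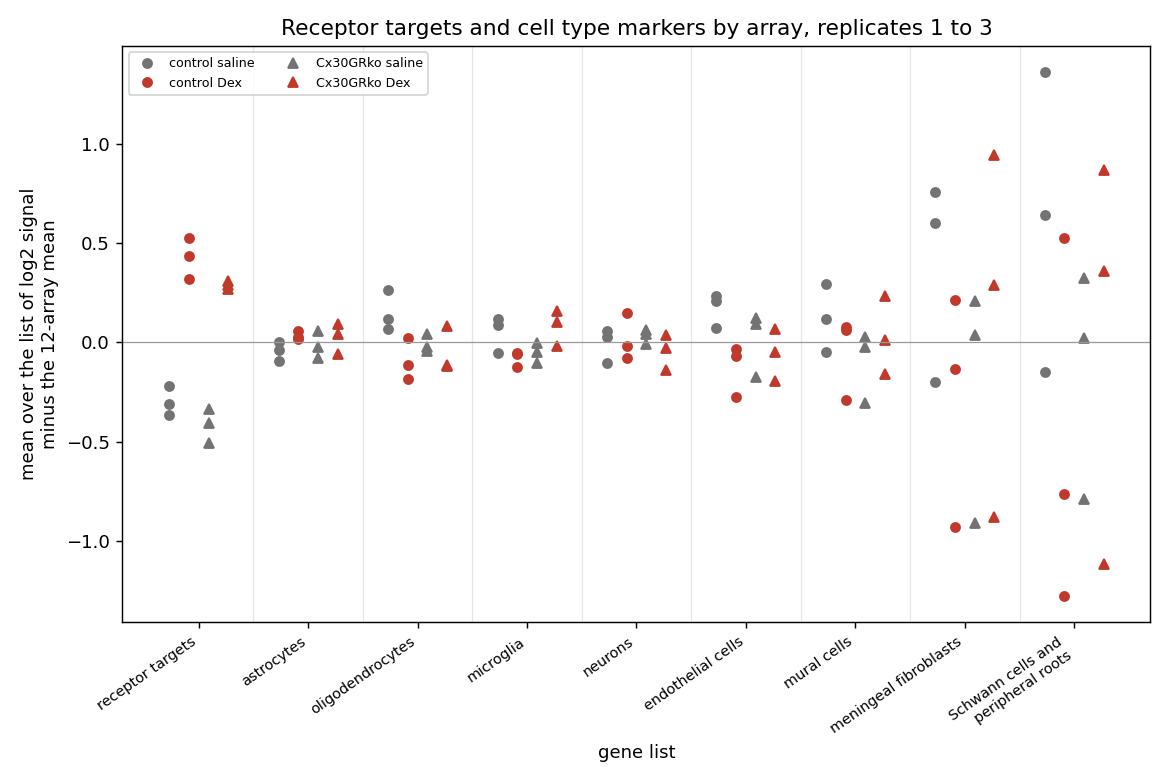
Mean over each list of log2 signal minus the 12-array mean (y axis) on every array, for the receptor targets and 8 cell type marker lists, with control as circles, Cx30GRko as triangles, saline in grey and Dex in red. The receptor targets part completely, at -0.51 to -0.22 in saline and 0.27 to 0.52 in Dex, while the meningeal and Schwann lists spread widely within every group.

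The 102 genes were called on the effect averaged over the genotypes, so their shared sign in both is largely set by that choice and is not read as a result. No gene passed the test of a genotype difference in the Dex effect (0 of 22180, 0%, limma), and 1170 genes (5.28%) had an unadjusted p under 0.05. With a level-dependent, robust variance prior 1 gene passed. That gene was Cd59a, which encodes a shield against complement, with a Dex difference of -0.54 in control and 0.58 in Cx30GRko mice (limma, adjusted p = 0.00816 under that prior and 0.557 without it). The other 4 genes of smallest p did not pass: the histocompatibility gene H2-Q5 with 0.92 in control and -0.95 in Cx30GRko mice, the adrenergic receptor Adra2c with 0.63 and -0.34, the olfactory receptor Olfr1329 with 0.63 and -0.92, and Kbtbd3, a kelch-repeat gene, with 0.61 and -0.49. H2-Q5 and Olfr1329 belong to families of close copies, which leaves their probe signals uncertain.

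Of the 102 genes 8 had an unadjusted interaction p under 0.05, beside 5.28% of all genes. None passed after adjustment (limma, adjusted p = 0.916 for each), so their direction is not read as a result. In these 8, chosen here by that p, the effect was larger in control mice: Lao1 1.74 in control against 0.65 in Cx30GRko mice, Depdc7 -1.37 against -0.62, Gm10863 -1.33 against -0.49 and Fbxo32 -1.07 against -0.55. The other 4 were Rnpep, Castor1, Mthfd2 and Sox2, with 0.93 against 0.45, 0.95 against 0.42, 0.92 against 0.41 and -0.78 against -0.30. Of the 5 largest rises, Setdb2 differed by 2.10 in control and 1.60 in Cx30GRko mice, Hif3a by 1.65 and 1.34, Slc25a13 by 1.57 and 1.39, Zfp36 by 1.77 and 1.10 and Arrdc2 by 1.33 and 1.52. The 3 largest falls were Trim59 at -1.39 and -1.27, Depdc7 as above and Tek at -1.24 and -0.67. The median of the receptor target list was 0.60 in control and 0.65 in Cx30GRko mice. In whole cord the targeted cells were not measured apart from the others.

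**Figure D4:**
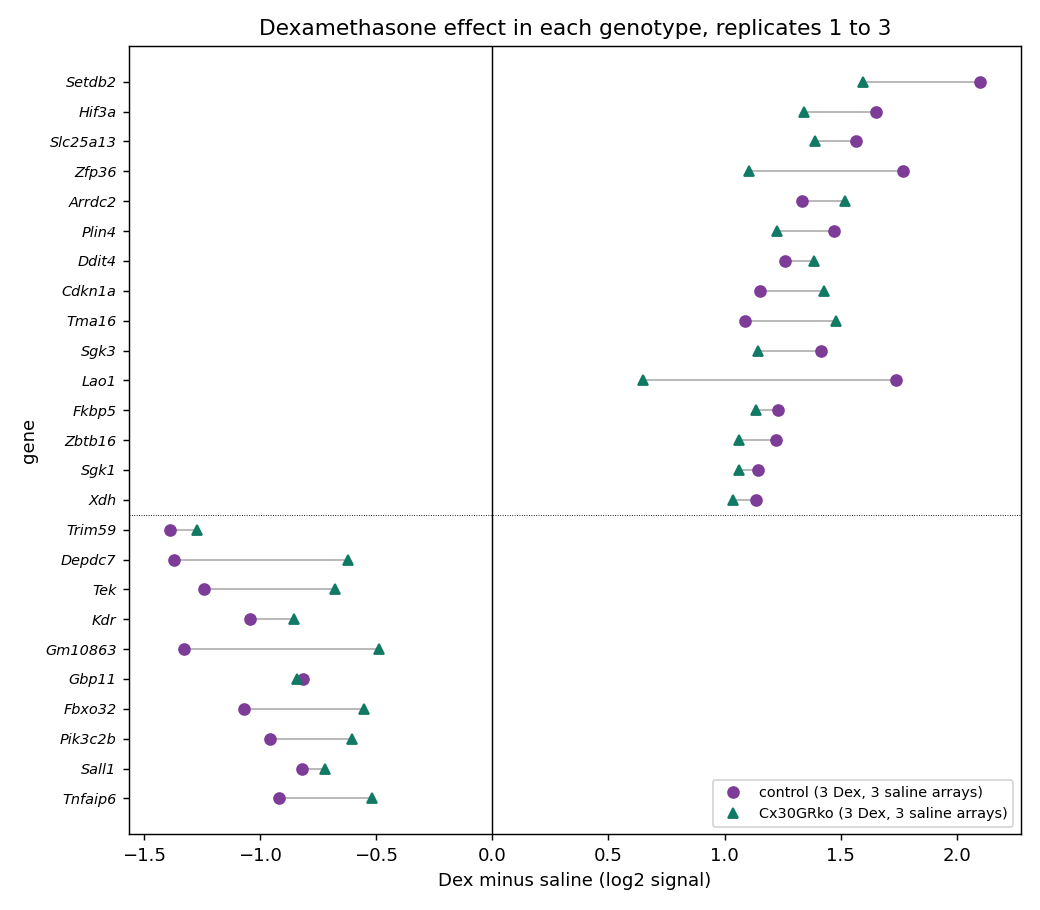
Dex minus saline (x axis, log2 signal) in control (circles) and Cx30GRko mice (triangles), each from 3 Dex and 3 saline arrays, for the 15 largest rises and 10 largest falls. The genes were chosen on the effect averaged over both genotypes, which favours points on the same side of 0, and none of the differences between the points passed the test.

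The same treatment in replicates 4 and 5, 4 Dex against 4 saline arrays, is a separate measurement of the same genes. Those arrays were centred separately and were noisier, with a median residual SD of 0.39 against 0.21 and a mean correlation of each array with the other arrays of its set of 0.86 to 0.89 against 0.94 to 0.96. No gene passed there (limma, 0%), and 1956 had an unadjusted p under 0.05. Of the 79 risers 55 were above 0 there, beside 54.5% of all genes, and 17 were above 0 with an unadjusted p under 0.05, beside 5.63% of all genes. Of the 23 fallers 10 were below 0, beside 45.5% of all genes, and 0 were below 0 with an unadjusted p under 0.05, beside 3.19% of all genes. An alternative chosen after the data were seen left out Cx30GRko Dex replicates 4 and 5, the arrays with the widest spread of values. The Dex effect in that set then came from control mice alone, and from fewer arrays. In that fit 52 of the 79 risers were above 0 (51.5% of all genes) and 17 of the 23 fallers were below 0 (48.5%). Genotype and number of arrays changed along with the spread, so these counts are not set against the 55 and 10 above.

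Among the risers, Sgk3 stood at 1.12 in replicates 4 and 5. It stood at 1.20 there without those 2 Cx30GRko Dex arrays (control mice alone), beside 1.28 in replicates 1 to 3 (both genotypes). Errfi1 stood at 1.49 and 1.57, beside 0.71. Slc25a13, Zbtb16 and Sgk1 changed more without the 2 arrays. Slc25a13 went from 1.21 to 0.70, Zbtb16 from 1.27 to 0.59 and Sgk1 from 0.87 to 0.57. In these shifts the spread of the 2 arrays and a genotype difference cannot be told apart. The fallers Trim59 and Kdr changed sign with the 2 arrays, Trim59 from 0.28 to -0.06 without them and Kdr from 0.22 to -0.26, while Tek was at 0.37 and 0.29. In replicates 1 to 3 these 3 genes were at -1.33, -0.95 and -0.96.

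The difference in Dex effect between the array sets passed the test in 244 genes (1.1%; 82 with the higher effect in replicates 1 to 3, 162 with the lower), but in 18 when each array set was given its own weight, and leaving out 1 array gave between 81 (control saline replicate 1) and 781 (control saline replicate 5). Of the 102 genes 12 were among the 244. The 102 were chosen on their effect in replicates 1 to 3, which is 1 side of this difference. The choice favours that overlap and differences in the direction of the called effect, so neither is read as a result. Fkbp5, at -0.05 ± 0.27 in replicates 4 and 5 and 1.18 ± 0.11 in replicates 1 to 3, differed by 1.23 (limma, adjusted p = 0.0299), and Ddit4, at 0.10 ± 0.18 there, by 1.22 (adjusted p = 0.00622). Without the 2 Cx30GRko Dex arrays, and so in control mice alone, Fkbp5 was at -0.34 and Ddit4 at -0.03 in replicates 4 and 5. Cdkn1a went the other way, at 2.56 ± 0.28 there against 1.29 ± 0.11, a difference of -1.27 (limma, adjusted p = 0.0299), and so did Ccng1 at 2.54 there against 0.79 (adjusted p = 0.0109). Of the 20 fits that leave out 1 array, 10 lost this call for Cdkn1a and 7 for Fkbp5, and 0 for Ddit4 and Ccng1. With a weight per array set 1 of the 12 passed, Pym1, a factor of the exon junction complex, at 0.51 in replicates 1 to 3 and -1.39 in replicates 4 and 5 (limma, adjusted p = 0.0229). The call of Pym1 for Dex in replicates 1 to 3 was itself lost in 10 of the 12 fits that leave out 1 array (adjusted p up to 0.132). Without Cx30GRko Dex replicates 4 and 5, 7 of the 12 passed in the unweighted fit. That fit sets the Dex effect over both genotypes in replicates 1 to 3 against that of control mice alone in replicates 4 and 5. The labels do not say what sets replicates 4 and 5 apart, and the array set cannot be told apart from any change in animals, handling or hybridisation between them.

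**Figure D5:**
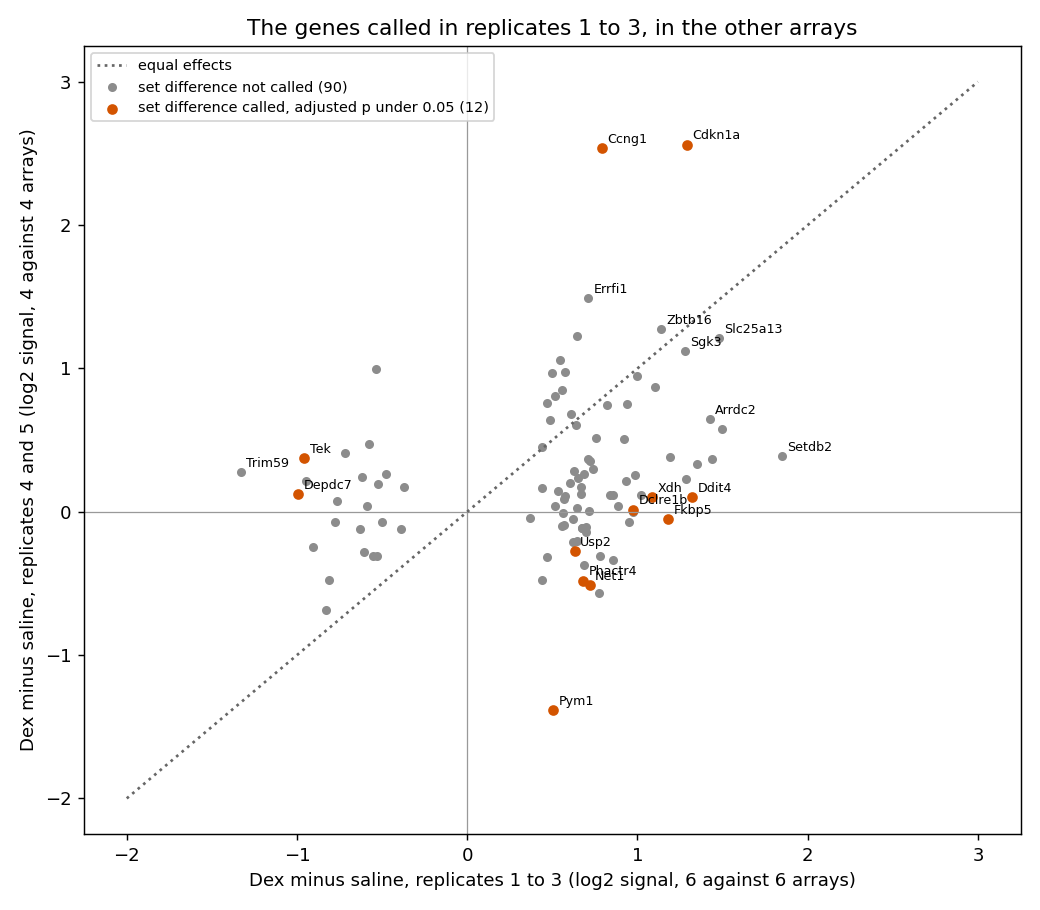
Dex minus saline (log2 signal) of the 102 genes in replicates 1 to 3 (x axis, 6 against 6 arrays) and in replicates 4 and 5 (y axis, 4 against 4 arrays), with the dotted line at equal effects. Orange points are the 12 genes whose difference between the sets passed the test, with Cdkn1a and Ccng1 above the line and Pym1 and Fkbp5 below it.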

How the data were processed

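Total RNA of each spinal cord sample was read on 1 Affymetrix whole-transcript array. The values the authors deposited are log2 signals per probe set, made with oligo per the submitters' processing notes. The oligo version, the normalization and the genome build are not given in the sources used here. Every array had the same mean, 4.64, and each probe set had the same mean over replicates 1 to 3 as over replicates 4 and 5 (largest difference 4.54e-09), so values had been centred within 2 sets of arrays. Levels are therefore not comparable between the sets, and no array was identical to another.

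Each of 22180 named genes was represented by its brightest probe set, by mean over 20 arrays (of 41345 probe sets, 23521 had 1 symbol, 1814 several and 16010 none). The 12 arrays of replicates 1 to 3 were fitted with genotype and treatment as additive terms (9 residual and 3.78 prior degrees of freedom) in limma 3.58.1 in R 4.3.3. The other fits added the interaction, took replicates 4 and 5 alone, or took all 20 arrays with the difference between the sets. P-values were two-sided and adjusted by Benjamini-Hochberg over all genes within each comparison, and genes under 0.05 were called. No filter on dim probe sets was used. The script was tested on simulated data.

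The members, 18 pathway lists and 14 marker lists were chosen with earlier results of these data known. The 15 largest rises, the 10 largest falls, up to 4 members of smallest p per list, 6 standing genes (Nr3c1, Gjb6, Fkbp5, Tsc22d3, Per1, Sgk1), and the genes of smallest p for the interaction and the set difference were named by rule. Further names, including those called for both Dex and the set difference, were chosen after their values were seen. Promoter windows are RefSeq's. Alternatives changed the normalization, weights, variance prior, filter, probe set rule, model terms, threshold and arrays. The number of arrays limits the precision, and where separate animals are not stated p-values measure only the spread between these samples, which may be technical.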

Additional observations from a re-analysis of the deposited data

Results flagged for a closer look

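Of 122 sets of 6 arrays tested over 61 genes, 8 held 1 array far from the others, where chance flags about 1 in 20. The count is near that rate and each set holds both genotypes, so no flag is read as a result. Among Dex arrays, Arrdc2 was lowest in control replicate 2 at 5.659, and Tef, a clock output factor, was lowest in Cx30GRko replicate 3 at 5.34. Among saline arrays, Ddit4 was highest in control replicate 3 at 4.498, Tma16 in Cx30GRko replicate 2 at 4.376, and the zinc transporter Slc39a14 in control replicate 1 at 6.107. Zbtb16 was lowest in control saline replicate 3 at 5.726, Lipe in Cx30GRko saline replicate 3 at 3.985, and the cholesterol exporter Abca1 in Cx30GRko saline replicate 2 at 5.39.

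The Dex effect differed between replicates 1 to 3 and replicates 4 and 5 by limma's test of the difference in 244 genes, of which 22 are given here as the first effect minus the second. The 10 with the smallest p were Laptm4b (-1.51), Mpp1 (-1.624), Tssk2 (1.919), the glial calcium-binding protein gene S100b (-1.506), Pxk (-1.615), Ptdss1 (-1.481), Add3 (-1.285), Mir466g (2.373), Arid2 (-1.315) and Tspear (1.97). The microRNA gene Mir466g belongs to a family of near copies, which leaves its signal uncertain. The 12 that Dex also changed in replicates 1 to 3 were Ddit4 (1.22), Cdkn1a (-1.268), Fkbp5 (1.233), Xdh (0.9846), Dclre1b (0.9608), Ccng1 (-1.748), Net1 (1.232), Phactr4 (1.162), Usp2 (0.9069), Pym1 (1.891), Depdc7 (-1.117) and Tek (-1.331). With a weight per array set 18 genes passed, and of the 12 only Pym1 did.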

How the results depend on the processing

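The count of 102 genes changed by Dex became 165 (126 higher, 39 lower) with a level-dependent, robust variance prior, 38 (36, 2) at an adjusted p under 0.01, 24 (22, 2) with all 20 arrays and array set as a block, and 46 (40, 6) with the spread shared with replicates 4 and 5. Leaving out 1 array gave 55 to 105. It stayed between 99 and 136 with renewed quantile normalization, array weights, the dimmest 1 in 3 genes left out, all probe sets or their mean kept, a mean per group or the marker covariate. With all 20 arrays Nr3c1 turned to 0.20, Irf8 to -0.20 and Pym1 to -0.25. Replicate numbers did not pair the arrays: same-numbered deviations correlated at -0.11 to 0.11 over 18 pairs, and 6 of 12 arrays correlated best with their own number. With the replicate block 79 genes were called, 76 of them among the 102. For the interaction 1 gene passed with that variance prior, and 0 under every other setting, including each left-out array and the replicate block. For the difference between array sets, 244 became 137 with the replicate block, 103 with quantile normalization and 24 with array weights. The count became 23 at an adjusted p under 0.01, 18 with a weight per array set and 81 to 781 without 1 array. Without Cx30GRko Dex replicates 4 and 5, which leaves control mice alone for Dex in that set, it was 285. Of those 285 genes, 82 were among the 244. Replicates 4 and 5 alone gave 0 throughout. The cause of these changes was not tested. With arrays alone no depth is known, and the dimmest 1 in 3 genes held 6 of the 102.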

Other observations

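Other called genes, picked here singly after their values were seen, add no list and no theme. The transcription factor Sox2 differed by -0.54 ± 0.10, Nkx2-2 by -0.53 ± 0.09 and the fibroblast growth factor receptor Fgfr2 by -0.55 ± 0.11 (limma, adjusted p = 0.0257, 0.0185 and 0.0465). Prox1, a homeobox factor, differed by -0.61 ± 0.10 and Car2, a carbonic anhydrase, by -0.48 ± 0.08 (limma, adjusted p = 0.015 and 0.0185). Of the 12 fits that leave out 1 array, 4 still called Sox2, 7 Nkx2-2, 1 Fgfr2, 11 Prox1 and 7 Car2. In replicates 4 and 5 the same genes stood at 1.00 (Sox2), 0.19 (Nkx2-2), -0.31 (Fgfr2), -0.28 (Prox1) and 0.27 (Car2). Without Cx30GRko Dex replicates 4 and 5, and so in control mice alone, those values became 1.69, -0.08, -0.97, -0.05 and 0.02.

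Among risers picked the same way, Nt5c3, a pyrimidine nucleotidase, was 1.00 ± 0.12 higher in replicates 1 to 3 (limma, adjusted p = 0.00118). It was 0.95 higher in replicates 4 and 5, and 0.77 without the 2 arrays. Il1r1, the interleukin-1 receptor, rose by 0.86 ± 0.14 (limma, adjusted p = 0.0126) and stood at 0.12 in replicates 4 and 5, or 0.09 without the 2 arrays. Usp2, a deubiquitinase, rose by 0.63 ± 0.07 (limma, adjusted p = 0.000631) and stood at -0.28 there, or -0.03 without them. Each of these 3 was called in all 12 fits that leave out 1 array.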
